A study of Rattus norvegicus with 45 samples.

Results

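Control rat livers collected at 24 h were compared with control rat livers collected at 6 h, across every gene the array measures. The comparison uses 10 of the 45 arrays of the series, 5 at 24 h and 5 at 6 h, chosen by their sample titles and by no measured value. Each array is an Affymetrix Rat Genome 230 2.0 chip, which holds short probes in groups called probe sets, hybridised with labelled liver RNA. The rats were male, 10 weeks old, of the Sprague-Dawley strain, and dosing was by gavage. The labels give the controls no compound, name no vehicle for them, and state neither the hour of collection nor the feeding state. Time since dosing and hour of the day therefore cannot be told apart. Set beside the controls are livers of rats given 225 mg/kg/day of myclobutanil or 175 mg/kg/day of triadimefon, both triazole fungicides, at 24 h and 6 h, and control livers at 14 days, all with 5 arrays per group. The sources conflict on numbers, since the titles give 5 arrays per group, the label protocol 3 rats per group and the series text 15 livers. The titles were followed, arrays that share a rat would not be independent, and the p-values measure the spread between arrays as titled.

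Each value is a deposited score per probe set and array, on what looks like a log scale whose base no source states. Differences therefore stay in units of the score, and none is turned into a fold. A score near or below 0, about the median over all probe sets, is called background here. Array medians lay near 0, but the bright end of the scale differed between arrays. The 99th percentile of the score was 2.88 to 3.52 in the 24 h controls, with replicate 2 brightest, and 2.69 to 3.24 in the 6 h controls. For bright probe sets, those with a mean score over 3, the median SD within the control groups came to 0.29 with the deposited scores and to 0.052 after quantile normalization, which gives every array the same distribution. The file names of the arrays end in 11 for all 24 h controls, and in 31 and 21 for replicates 2 and 3 of the 6 h controls. Those replicates also had the highest 99th percentiles of the 6 h controls, at 3.24 and 3.17. In the treated groups all 24 h arrays end in 11, and 3 of the 5 arrays at 6 h of each compound end in 12. The difference between 3′ and 5′ probe sets, a sign of RNA breakdown, averaged 0.71 ± 0.046 at 24 h and 0.71 ± 0.071 at 6 h for actin, and 0.26 ± 0.040 at 24 h and 0.32 ± 0.073 at 6 h for GAPDH (SD, n = 5 each). It was highest among the 6 h controls in replicates 2 and 3, at 0.75 and 0.80 for actin and 0.34 and 0.44 for GAPDH.

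The liver clock is a loop of transcription factors. BMAL1 pairs with CLOCK or NPAS2 and switches on the Period and Cryptochrome genes, whose proteins block that pair, and the genes of the receptors REV-ERB alpha and REV-ERB beta (Nr1d1 and Nr1d2). The REV-ERBs repress Bmal1 and its partners through a DNA element that the ROR receptors activate, and a further arm of the loop runs through DBP, TEF and HLF, which bind the same sites as their repressor NFIL3. In liver this loop and the rhythm of feeding set the daily course of many genes of lipid, bile acid and glucose metabolism.

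Between 24 h and 6 h the control livers differed in 11 genes of the core clock. Bmal1, Npas2, Clock, Rora, Cry1 and Nfil3 were higher at 24 h, and Nr1d1, Nr1d2, Dbp, Per3 and Tef were lower. These are 6 higher and 5 lower of 20 measured genes among 22 listed as core clock genes. Over all 14217 genes 2.55% were called higher and 0.788% lower, called meaning an adjusted p under 0.05 in the limma fit over all 31042 probe sets tested. For comparison, an unadjusted p under 0.05 was reached by 16.2% of genes. For 10 of the 11 called clock genes the 5 arrays at 24 h and the 5 at 6 h did not overlap, which held for 2.8% of all genes. The 11 were called from these same arrays, so this is a description and no separate support. Among all 62 named genes that were called, 44 had groups that did not overlap. After quantile normalization the counts were again 6 and 5, where 3.07% and 2.8% of genes were higher and lower, and within arrays whose file name ends in 11 they were 5 and 5, where 1.25% and 0.302% were.

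Promoter sequences from RefSeq (rat build GRCr8, 250 bases before to 50 after the annotated start) were found for 10 of the 11 called clock genes. They were searched on both strands for CACGTG (the E-box bound by the BMAL1 pair), TAGGTCA or TGGGTCA (the core bound by ROR and REV-ERB receptors), TTANGTAA (the D-box of DBP and NFIL3), TGACGTCA (the CREB site), ACANNNTGT (a core of the glucocorticoid receptor element) and the heat shock element. The 3 promoters that hold any of them are shown for that reason alone, with the match in capitals. For Cry1 no promoter was found. The Bmal1 promoter (chr1:176766078-176766377, plus strand) holds TAGGTCA at 16 to 10 bases before the start, the Tef promoter (chr7:115206577-115206876, plus strand) holds CACGTG at 198 to 193 bases before it, and the Nfil3 promoter (chr17:12432126-12432425, plus strand) holds ACACTTTGT at 122 to 114 bases before it.
Bmal1: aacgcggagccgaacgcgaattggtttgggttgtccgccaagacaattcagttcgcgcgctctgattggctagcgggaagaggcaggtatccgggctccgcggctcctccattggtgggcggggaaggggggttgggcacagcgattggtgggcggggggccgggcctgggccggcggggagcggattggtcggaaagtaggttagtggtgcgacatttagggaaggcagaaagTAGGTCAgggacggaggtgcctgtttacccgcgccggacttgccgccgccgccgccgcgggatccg
Tef: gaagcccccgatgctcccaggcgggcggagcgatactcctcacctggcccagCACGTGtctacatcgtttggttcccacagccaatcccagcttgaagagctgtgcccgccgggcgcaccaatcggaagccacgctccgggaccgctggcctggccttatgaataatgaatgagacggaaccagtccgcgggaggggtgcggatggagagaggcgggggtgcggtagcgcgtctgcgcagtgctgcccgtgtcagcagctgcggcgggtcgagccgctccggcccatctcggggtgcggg
Nfil3: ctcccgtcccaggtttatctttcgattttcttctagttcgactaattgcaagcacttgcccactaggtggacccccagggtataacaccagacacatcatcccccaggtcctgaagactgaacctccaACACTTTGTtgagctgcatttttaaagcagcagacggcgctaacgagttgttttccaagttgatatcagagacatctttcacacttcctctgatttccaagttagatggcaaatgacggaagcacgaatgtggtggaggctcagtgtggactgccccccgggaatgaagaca
Of 33469 promoters of this length 6.42% hold CACGTG, 6.6% either ROR core, 2.24% the D-box, 1.83% the CREB site, 6.86% the glucocorticoid core and 0.798% the heat shock element. A match is a description of these letters only, and the 7 other promoters hold none of them in this window.

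Bmal1 (gene 29657), the central activator, had scores of 0.70, 0.90, 0.75, 0.66 and 0.67 at 24 h (replicates 1 to 5 here and below), against 0.20, 0.13, 0.0043, -0.11 and 0.13 at 6 h. Every 24 h array lay above every 6 h array, with a difference of 0.67 ± 0.085 (24 h minus 6 h, ± standard error of the fit, adjusted p = 2.6e-06). Npas2, the partner that can stand in for CLOCK, had 0.62, 0.72, 0.68, 0.54 and 0.64 at 24 h, against 0.24, 0.16, -0.073, -0.20 and 0.028 at 6 h. Its groups did not overlap either, and the difference was 0.61 ± 0.10 (adjusted p = 0.00029).

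Clock itself had 0.84, 1.05, 0.88, 0.78 and 0.89 at 24 h, against 0.68, 0.71, 0.53, 0.56 and 0.63 at 6 h. The groups were apart but the difference was smaller, at 0.27 ± 0.07 (adjusted p = 0.025). Its call ended when 6 h replicate 3 or 4 or 24 h replicate 2 or 5 was left out, with adjusted p up to 0.094, while of its 3 other probe sets 1 was called higher, at 0.18 (adjusted p = 0.025), and the dimmer ones showed 0.026 (adjusted p = 0.78) and 0.083 (adjusted p = 0.33). Rora, the ROR alpha receptor that activates Bmal1, had 0.70, 0.87, 0.75, 0.70 and 0.68 at 24 h and 0.28, 0.28, 0.20, 0.46 and 0.30 at 6 h. All 5 values at 24 h exceeded all 5 at 6 h, a difference of 0.43 ± 0.055 (adjusted p = 2.9e-06). A second probe set of Rora showed 0.029 (adjusted p = 0.7). Bmal2 and Rorb, related genes with a lesser or no known part in the liver loop, averaged -0.14 ± 0.029 and -0.17 ± 0.025 at 24 h, against -0.13 ± 0.036 and -0.18 ± 0.028 at 6 h (SD, n = 5 each), near the background level of the array. Among the activators 4 of 6 measured genes were called higher and 0 lower, and their median difference was 0.35, beside 0.0077 over all genes.

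**Figure D1:**
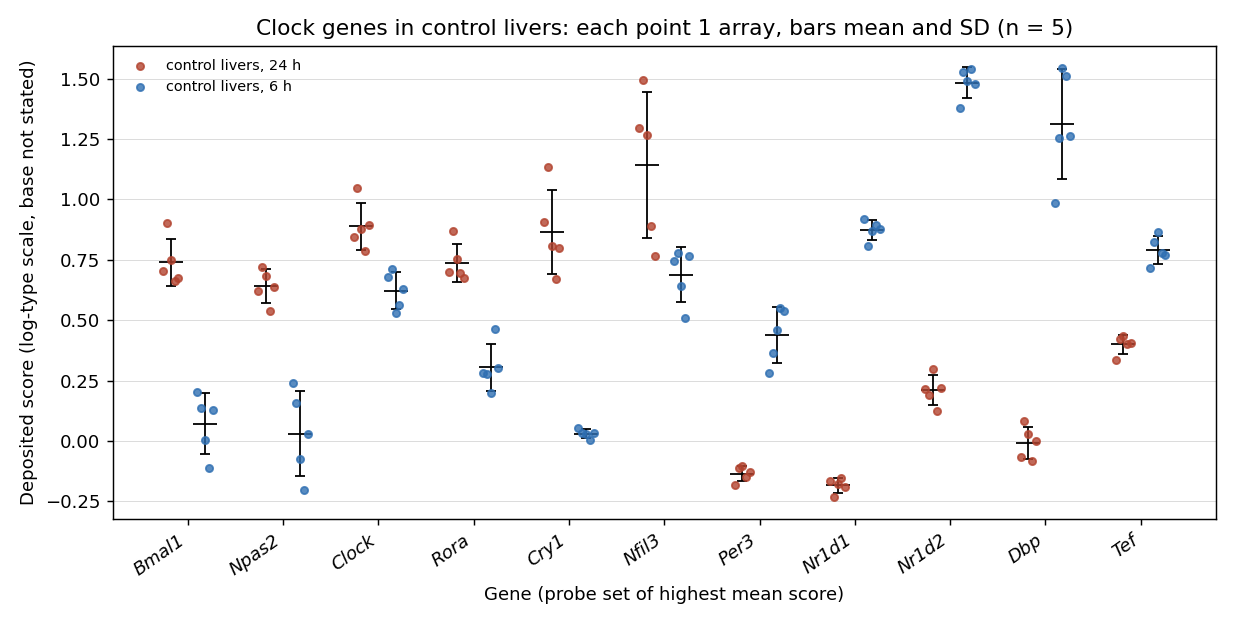
Deposited score (y axis) of the 11 called clock genes in each control array, with 24 h arrays (red) left of 6 h arrays (blue) for each gene, and bars for the mean and SD (n = 5). The 2 groups of points are apart for every gene shown but Nfil3.

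The repressors split. Nr1d1, encoding REV-ERB alpha, had -0.17, -0.23, -0.18, -0.15 and -0.19 at 24 h, against 0.92, 0.81, 0.87, 0.90 and 0.88 at 6 h. The 24 h scores were at the background and the 6 h scores close together, a difference of -1.06 ± 0.086 (adjusted p = 4.8e-11). Nr1d2, for REV-ERB beta, had 0.21, 0.19, 0.30, 0.12 and 0.22 at 24 h and 1.38, 1.53, 1.49, 1.54 and 1.48 at 6 h. The groups were far apart, by -1.27 ± 0.10 (adjusted p = 4.8e-11), and both its other probe sets were called in the same direction. Per3, a Period gene, had -0.18, -0.11, -0.10, -0.15 and -0.13 at 24 h and 0.28, 0.36, 0.46, 0.55 and 0.54 at 6 h. It was lower in all 24 h arrays, by -0.57 ± 0.081 (adjusted p = 1.9e-05), although its dimmer second probe set showed -0.066 (adjusted p = 0.38).

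Cry1, a Cryptochrome that blocks BMAL1, went the other way. It had 0.91, 1.13, 0.81, 0.67 and 0.80 at 24 h, against 0.054, 0.034, 0.029, 0.0044 and 0.031 at 6 h, where all 5 arrays were close to 0. The difference was 0.83 ± 0.077 (adjusted p = 1.4e-09), the third largest increase among called genes. The other repressors were not called, with 0.41 ± 0.08 for Per1, 0.56 ± 0.21 for Per2 and 0.62 ± 0.10 for Cry2 at 24 h, against 0.51 ± 0.095, 0.53 ± 0.13 and 0.60 ± 0.037 at 6 h for the same genes in that order. The difference had 95% intervals of -0.21 to 0.0019 for Per1, -0.23 to 0.30 for Per2 and -0.081 to 0.11 for Cry2. Bhlhe40 and Bhlhe41, encoding the DEC repressors, differed by -0.25 ± 0.13 (adjusted p = 0.41) and -0.064 ± 0.029 (adjusted p = 0.31), and Timeless by -0.13 ± 0.059 (adjusted p = 0.32). In all, 1 of 10 measured repressors was called higher and 3 were lower.

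In the third arm, Dbp had -0.065, 0.081, 0.028, -0.084 and -0.0009 at 24 h, against 0.99, 1.25, 1.54, 1.51 and 1.26 at 6 h. Every 24 h array was near 0 and every 6 h array near or above 1, a difference of -1.32 ± 0.18 (adjusted p = 1.3e-05). Tef, its relative, had 0.33, 0.42, 0.43, 0.40 and 0.41 at 24 h and 0.71, 0.82, 0.86, 0.78 and 0.77 at 6 h. It was lower in all 24 h arrays, by -0.39 ± 0.054 (adjusted p = 1.4e-05), with both other probe sets also called lower. Nfil3, the repressor of the same sites, had 1.29, 1.495, 1.26, 0.89 and 0.76 at 24 h and 0.75, 0.78, 0.64, 0.51 and 0.76 at 6 h. The groups overlapped, since replicate 5 at 24 h lay among the 6 h values, and the difference of 0.45 ± 0.11 (adjusted p = 0.015) lost its call without 6 h replicate 4 or 24 h replicate 2, with adjusted p up to 0.069. The call of Nfil3 also ended with only these 10 arrays in the fit (adjusted p = 0.17) and within arrays whose file name ends in 11 (adjusted p = 0.062). Hlf had 0.81 ± 0.10 at 24 h and 0.77 ± 0.16 at 6 h (SD, n = 5 each), and was not called (95% interval of the difference -0.13 to 0.21).

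The 14-day controls were compared as levels only. For all 11 called clock genes the range of the 14-day arrays overlapped that of the 24 h arrays. The 14-day range overlapped that of the 6 h arrays for 1 of them, Clock, with 0.53 to 0.71 at 6 h, 0.78 to 1.05 at 24 h and 0.70 to 0.93 at 14 days. The 11 genes were chosen for their difference between 24 h and 6 h. The share of all genes with such overlaps was not computed, so both counts are a description only. Nr1d1 averaged 0.87 ± 0.041 at 6 h, -0.18 ± 0.03 at 24 h and -0.19 ± 0.025 at 14 days, and Dbp 1.31 ± 0.23, -0.0082 ± 0.068 and -0.043 ± 0.056 at the same times. Bmal1 averaged 0.072 ± 0.12 at 6 h, 0.74 ± 0.10 at 24 h and 0.65 ± 0.051 at 14 days (SD, n = 5 each).

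**Figure D2:**
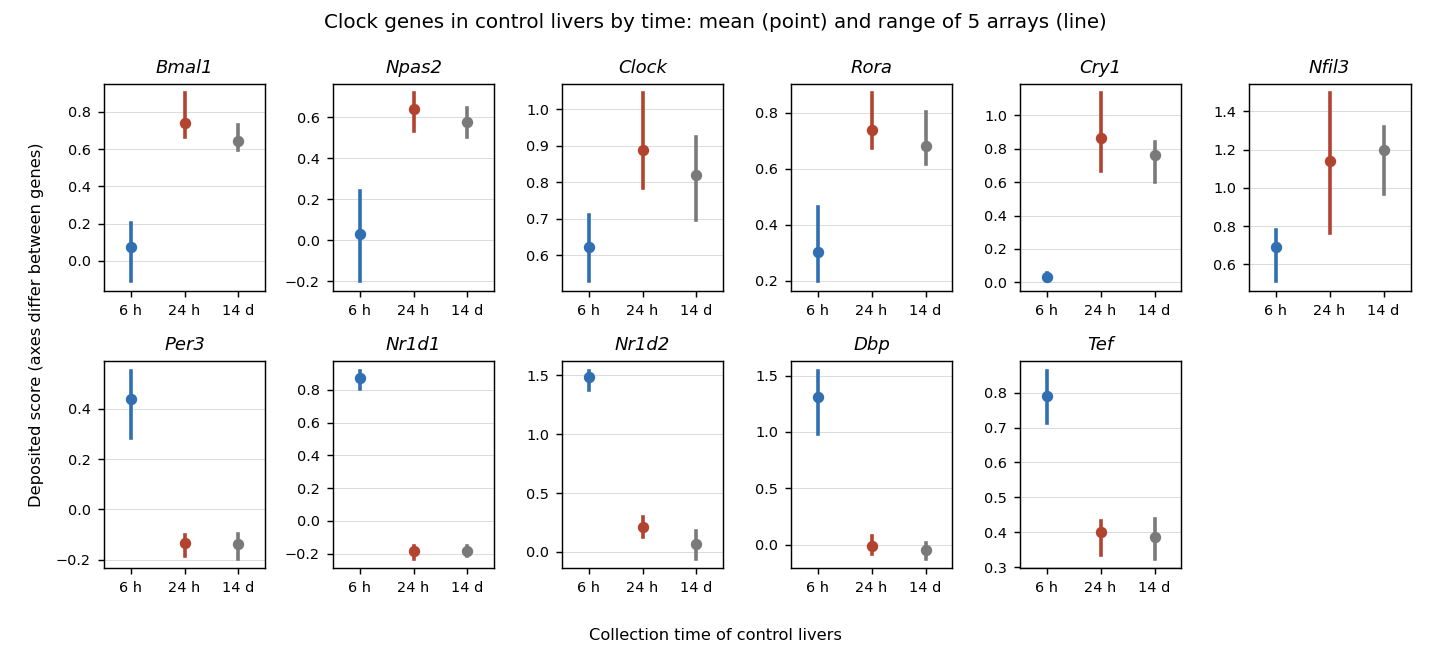
Mean (point) and range (line) of the deposited score of the 11 called clock genes in control livers at 6 h, 24 h and 14 days, 5 arrays each, with a separate y axis for each gene. The 14-day ranges overlap the 24 h ranges for all 11 genes.

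Livers of the treated rats share no array with the controls and gave the same direction for all 11 genes, with both compounds. With myclobutanil 10 of the 11 were called in that direction, where 6.87% of genes were higher and 6.76% lower, and with triadimefon 9, where 3.52% were higher and 7.41% lower. Among arrays whose file name ends in 11 the signs were again the same for all 11, with 8 called with myclobutanil and 6 with triadimefon. Dbp differed between 24 h and 6 h by -0.93 ± 0.18 with myclobutanil, -1.26 ± 0.18 with triadimefon and -1.32 ± 0.18 in the controls. Nr1d2 differed by -1.13 ± 0.10 with myclobutanil, -0.99 ± 0.10 with triadimefon and -1.27 ± 0.10 in the controls. Cry1 differed by 0.67 ± 0.077 with myclobutanil, 0.38 ± 0.077 with triadimefon and 0.83 ± 0.077 in the controls. The test of the time difference itself against that of the controls called 0 of the 11 genes with myclobutanil (limma, 0 also at an unadjusted p under 0.05), where 2.48% of genes were called, and 1 with triadimefon. That 1 was Cry1, whose time difference was smaller with triadimefon by -0.45 (95% interval -0.68 to -0.23, adjusted p = 0.015), where 4.6% of genes were called in that test. Among arrays whose file name ends in 11 it was -0.43 and not called (adjusted p = 0.28). A missed threshold does not show that the time differences were alike: for Dbp with myclobutanil the interval was -0.13 to 0.92.

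**Figure D3:**
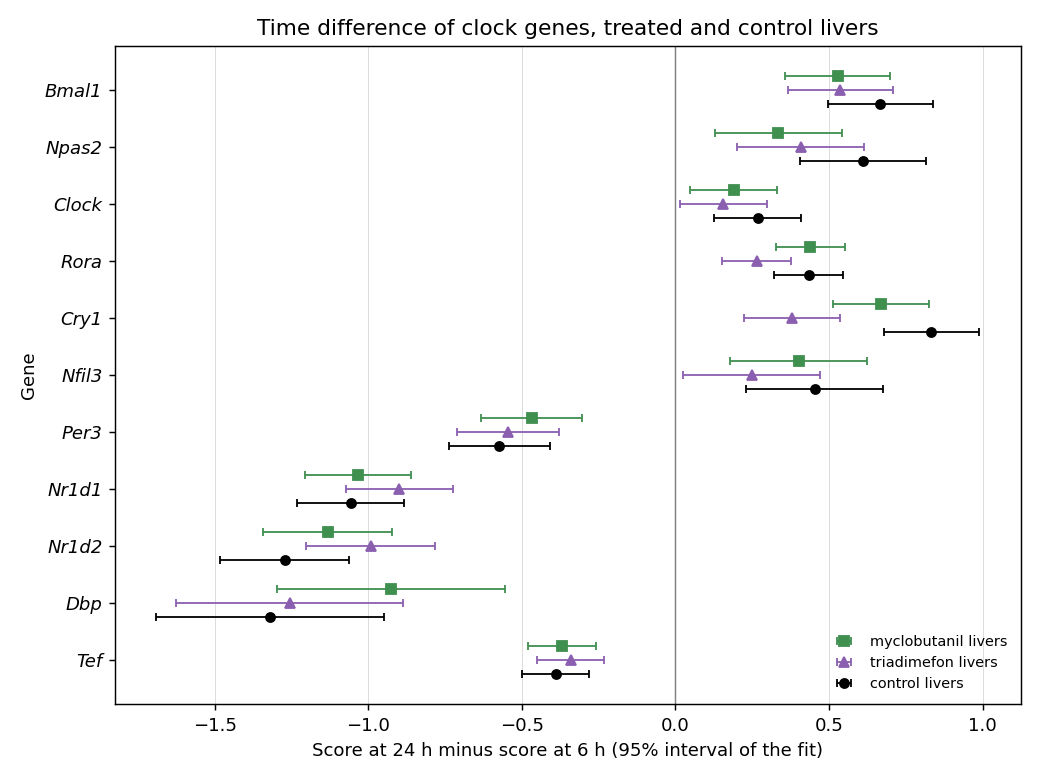
Score at 24 h minus score at 6 h (x axis, score units) for the 11 called clock genes in myclobutanil livers (squares), triadimefon livers (triangles) and control livers (circles), with 95% intervals. For each gene both compounds' differences lie on the same side of 0 as that of the controls.

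Of 21 measured output genes of the clock, 3 were called higher and 0 lower, where 2.55% of all genes were higher and 0.788% lower. Among arrays whose file name ends in 11 the outputs gave 1 higher and 0 lower, where 1.25% and 0.302% of genes were. The 9 measured genes for clock protein turnover gave 0 called by limma, 3 at an unadjusted p under 0.05 and 1 lower after quantile normalization. Over all genes 16.2% had such an unadjusted p, and 2.8% were lower after quantile normalization. Avpr1a, the vasopressin receptor of liver, had 2.19, 3.01, 2.54, 2.31 and 2.45 at 24 h and 1.79, 2.00, 1.78, 1.98 and 2.06 at 6 h. Its 24 h arrays lay above all 6 h arrays, by 0.58 ± 0.14 (adjusted p = 0.011), though without 24 h replicate 2 the adjusted p was 0.059. Cdkn1a, the p21 inhibitor of the cell cycle, had 0.66, 0.51, 0.71, 1.05 and 1.13 at 24 h and 0.22, 0.35, 0.36, 0.26 and 0.32 at 6 h, a difference of 0.51 ± 0.10 (adjusted p = 0.0022). Leo1, a part of the PAF complex that travels with RNA polymerase, differed by 0.16 ± 0.045 (adjusted p = 0.046) with overlapping groups, and its call ended in 6 of 10 cases when a single array was left out (adjusted p up to 0.23). The genes Alas1, Por, Nr1i3, Cirbp and Rbm3, described as rhythmic in liver or as following body temperature, were not called, with differences of -0.19 for Alas1, -0.40 for Por, 0.19 for Nr1i3, -0.05 for Cirbp and -0.14 for Rbm3.

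The lowest difference of all called genes was that of Hsd17b2, the enzyme that oxidises oestradiol and testosterone. It had 1.42, 2.05, 1.81, 1.40 and 1.62 at 24 h, against 3.17, 3.78, 4.03, 3.53 and 3.40 at 6 h. The gap of -1.92 ± 0.20 (adjusted p = 4.4e-08) was larger in size than that of any of the 20 core clock genes, and it was -1.47 ± 0.20 with myclobutanil and -1.72 ± 0.20 with triadimefon. Sdr42e1, of the same short-chain dehydrogenase superfamily, had 0.48 ± 0.12 at 24 h and 1.03 ± 0.066 at 6 h, a difference of -0.55 ± 0.059 (adjusted p = 5.4e-08). Both were lower in every 24 h array than in any 6 h array.

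The scores most like those of Dbp over the 35 arrays outside this comparison were found by Pearson correlation, as a description, with the arrays sharing treatments and times. They were Per3 (r = 0.98), Hsd17b2 (r = 0.96), Tef (r = 0.92), Nr1d1 (r = 0.9) and Gpr146 (r = 0.89), a receptor-like membrane protein. The most opposite were Bmal1 (r = -0.97), Lgalsl (r = -0.91), Npas2 (r = -0.9), Tubb2a (r = -0.9) and Clpx (r = -0.88). In the controls Gpr146 differed by -0.42 ± 0.088 (adjusted p = 0.0039), and the other 9 are described here with their values.

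Among other genes higher at 24 h, Tubb2a, a tubulin, had 2.73, 3.17, 2.78, 2.59 and 2.66 at 24 h and 2.04, 2.01, 1.31, 1.54 and 1.93 at 6 h. Its difference of 1.02 ± 0.18 was the highest of the called genes (adjusted p = 0.0005). Lgalsl, a galectin-like protein, had 1.17, 1.23, 1.13, 0.99 and 1.02 at 24 h and 0.54, 0.32, 0.28, 0.37 and 0.43 at 6 h, and Rnf125, a ubiquitin ligase, had 2.39, 2.43, 2.08, 2.23 and 2.00 and 1.55, 1.57, 1.14, 1.05 and 1.30 at those times. Neither overlapped between the times, with differences of 0.72 ± 0.079 (adjusted p = 8.9e-08) and 0.90 ± 0.11 (adjusted p = 6.8e-07). Inhba, the activin beta A subunit, differed by 0.79 ± 0.17 (adjusted p = 0.0045), Slc6a6, the taurine carrier, by 0.70 ± 0.16 (adjusted p = 0.0097) and Pgpep1, a peptidase, by 0.69 ± 0.11 (adjusted p = 0.00012). Pnrc1, a coactivator of nuclear receptors, differed by 0.60 ± 0.086 (adjusted p = 2.2e-05), Clpx, a subunit of a mitochondrial protease, by 0.62 ± 0.10 (adjusted p = 0.00032) and Sez6, best known from neurons, by 0.79 ± 0.14 (adjusted p = 0.00048). For all 6 the groups were apart. The time difference of Sez6 was 0.053 ± 0.14 with myclobutanil and 0.05 ± 0.14 with triadimefon, both smaller than in the controls (adjusted p = 0.037 and 0.026). Sez6 was named for its control difference, which the gap subtracts, so this gap does not stand independently of that choice. It was not called for either compound among arrays whose file name ends in 11 (adjusted p = 0.14 and 0.37), and single arrays left out ended it in 10 of 20 cases with myclobutanil and 3 with triadimefon. The probe set of Pgpep1 is of a kind that can also bind transcripts of other genes.

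Fatty acid oxidation genes gave 4 lower (Cyp4a3, Cpt1a, Ech1 and Eci1) and 0 higher of 35 measured, where 0.788% of all genes were lower. At an unadjusted p under 0.05 in the limma fit, 7 were lower and 0 higher, beside 16.2% of all genes in either direction. Cyp4a3, a fatty acid hydroxylase of a family with near-identical members, had 2.64, 2.81, 2.82, 2.58 and 2.70 at 24 h and 3.27, 3.61, 3.61, 3.10 and 3.27 at 6 h. Cpt1a, which carries fatty acids into mitochondria, had 1.69, 1.81, 1.90, 1.64 and 1.98 at 24 h and 2.14, 2.64, 2.49, 2.40 and 2.34 at 6 h. Both groups of arrays were apart in each gene, by -0.67 ± 0.15 (adjusted p = 0.0075) and -0.60 ± 0.16 (adjusted p = 0.026). Ech1 and Eci1, which handle unsaturated fatty acids, differed by -0.60 ± 0.13 (adjusted p = 0.0045) and -0.45 ± 0.13 (adjusted p = 0.049), and Hacl1, of the alpha oxidation of branched fatty acids and outside the list, by -0.61 ± 0.17 (adjusted p = 0.038). The probe set of Eci1 is of a kind that can also bind transcripts of other genes. A dimmer second probe set of Eci1 showed 0.021 (adjusted p = 0.89). Leaving out a single array ended the call in 5 of 10 cases for Cpt1a and 7 each for Eci1 and Hacl1, with adjusted p up to 0.079, 0.13 and 0.1. The median over the 35 genes was -0.051, beside 0.0077 over all genes. After quantile normalization 11 of the 35 were lower, where 2.8% of all genes were. Within arrays whose file name ends in 11 it was 0, where 0.302% of all genes were lower. The differences there were -0.51 for Cyp4a3 (adjusted p = 0.12) and -0.49 for Cpt1a (adjusted p = 0.21). The part of the file-name ending in this was not tested.

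With triadimefon the time difference of Cyp4a3 was 0.52 ± 0.15, against -0.67 ± 0.15 in the controls, a gap of 1.19 (adjusted p = 0.0013). Over all arrays Ech1 and Eci1 gave gaps of 0.87 (adjusted p = 0.0044) and 0.94 (adjusted p = 0.0027). These genes were named for their control difference, so the gaps are not independent of that choice. Among arrays whose file name ends in 11 the gap was 1.15 for Cyp4a3 (adjusted p = 0.062), 0.81 for Ech1 (adjusted p = 0.21) and 0.87 for Eci1 (adjusted p = 0.18). With myclobutanil the time difference was -0.93 ± 0.16 for Cpt1a, 0.032 ± 0.15 for Cyp4a3 and -1.05 ± 0.17 for Hacl1.

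**Figure D4:**
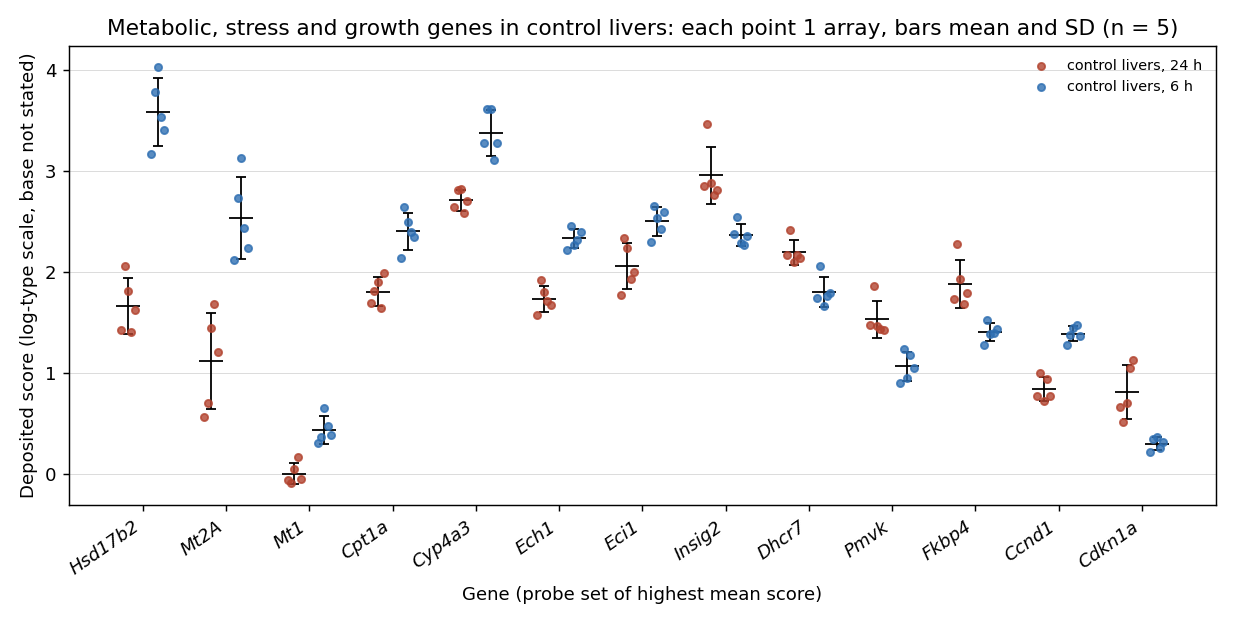
Deposited score (y axis) of 13 metabolic, stress and growth genes in each control array, with 24 h arrays (red) left of 6 h arrays (blue), and bars for the mean and SD (n = 5). Hsd17b2 shows the widest gap, with 24 h arrays at 1.40 to 2.05 and 6 h arrays at 3.17 to 4.03.

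Single genes of lipid synthesis were higher. Of 23 sterol genes 3 were higher, Insig2, Dhcr7 and Pmvk, and of 24 fatty acid synthesis genes 2, Pgd and Acsl3. Over all genes 2.55% were called higher and 0.788% lower. Insig2, which holds back the sterol sensor, had 2.85, 3.46, 2.88, 2.76 and 2.81 at 24 h and 2.38, 2.54, 2.28, 2.26 and 2.35 at 6 h, with replicate 2 standing above the rest at 24 h. The difference was 0.59 ± 0.13 (adjusted p = 0.0075). Pmvk, of the mevalonate pathway, differed by 0.47 ± 0.075 (adjusted p = 0.00019), Dhcr7, the last step to cholesterol, by 0.39 ± 0.10 (adjusted p = 0.027), and Pgd, of the pentose phosphate pathway, by 0.42 ± 0.087 (adjusted p = 0.0038). After quantile normalization 2 sterol genes were higher and 2 lower, where 3.07% of all genes were higher and 2.8% lower. Dhcr7 was then no longer called (0.30, adjusted p = 0.12). Dhcr7 also lost its call in 5 of 10 cases when a single array was left out (adjusted p up to 0.098). Acsl3, which activates fatty acids, differed by 0.22 ± 0.054 (adjusted p = 0.016), with 0.086 as the highest adjusted p when 6 h replicate 3 or 24 h replicate 5 was left out. Gpam and Agpat2, which build triglyceride, were the 2 called genes of 29 in that list, at 0.36 ± 0.079 (adjusted p = 0.0064) and 0.27 ± 0.07 (adjusted p = 0.022), and Agpat2 lost its call without 6 h replicate 3 or 4 or 24 h replicate 2 (adjusted p up to 0.12). The bile acid genes gave 0 called of 23 by limma, 3 at an unadjusted p under 0.05 (16.2% of all genes) and 3 lower after quantile normalization. Cyp7a1, the rate-limiting enzyme, had 2.21 ± 0.32 at 24 h and 2.21 ± 0.25 at 6 h (SD, n = 5 each). With myclobutanil and triadimefon Cyp7a1 differed by -1.35 ± 0.27 and -1.14 ± 0.27, gaps to the controls of -1.35 (adjusted p = 0.057) and -1.14 (adjusted p = 0.093).

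Of 28 genes that fasting is known to raise, 0 were higher (limma, 1 at an unadjusted p under 0.05) and 1, Cpt1a, was lower, where 2.55% of all genes were higher and 0.788% lower, and of 25 insulin-linked genes 2 were higher, Gpam and Nr1h3, the liver X receptor alpha (0.24 ± 0.065, adjusted p = 0.031). Nr1h3 lost its call in 6 of 10 cases when a single array was left out (adjusted p up to 0.17). After quantile normalization the fasting list gave 2 lower and the insulin list 3 higher and 1 lower. The glucose and glycogen list gave 0 called of 29 by limma, 9 at an unadjusted p under 0.05, and 2 higher and 4 lower after quantile normalization. An unadjusted p under 0.05 was reached by 16.2% of all genes, and after quantile normalization 3.07% of all genes were higher and 2.8% lower. Pck1, the key enzyme of glucose production, had 3.51, 4.41, 3.81, 3.78 and 3.97 at 24 h and 3.41, 4.07, 4.31, 3.60 and 3.67 at 6 h. The values overlapped throughout, and the 95% interval of the difference was -0.27 to 0.44. Igfbp1, Tat, Srebf1 and Fasn, which answer to insulin or glucocorticoid, were not called either, with intervals of -0.40 to 0.84 for Igfbp1, -0.31 to 0.59 for Tat, -0.016 to 0.55 for Srebf1 and -0.22 to 0.60 for Fasn. A difference of the size of that of Clock lies inside the interval of Igfbp1. Prodh and Cth, of amino acid breakdown, were the 2 called genes of 36, Prodh with 1.70 ± 0.11 at 24 h and 1.20 ± 0.088 at 6 h and a difference of 0.49 ± 0.062 (adjusted p = 2.2e-06). Cth differed by 0.46 ± 0.12 (adjusted p = 0.023) and lost its call in 5 of 10 cases when a single array was left out (adjusted p up to 0.12), and after quantile normalization the list gave 3 higher and 1 lower.

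Among stress genes, Mt2A, a metallothionein that binds zinc and is induced by glucocorticoid and metals, had 0.56, 0.70, 1.44, 1.68 and 1.21 at 24 h and 2.12, 2.72, 3.12, 2.44 and 2.24 at 6 h. All 24 h arrays were lower, by -1.41 ± 0.30 (adjusted p = 0.005), and Mt1 was lower by -0.43 ± 0.086 (adjusted p = 0.0021), though the transcripts are much alike and probes may not separate them. Klf9, a glucocorticoid-responsive factor, differed by -0.56 ± 0.15 (adjusted p = 0.032), lost its call in 6 of 10 cases when a single array was left out (adjusted p up to 0.11), and was not called by its other 2 probe sets. Fkbp5 and Tsc22d3, standard glucocorticoid targets, differed by 0.014 ± 0.055 (adjusted p = 0.96) and 0.43 ± 0.16 (adjusted p = 0.18). Over the 22 measured genes of this glucocorticoid and metallothionein list 1 was called higher, Cdkn1a, and 3 lower, Mt2A, Mt1 and Klf9. Over all genes 2.55% were called higher and 0.788% lower. Among arrays whose file name ends in 11 the list gave 2 higher and 1 lower, where 1.25% and 0.302% of genes were. Of 33 immediate early genes 0 were called by limma and 3 had an unadjusted p under 0.05, beside 16.2% of all genes. Egr1, induced within minutes of a stimulus, had 0.21, 0.11, 0.038, 0.085 and 0.085 at 24 h and 0.95, 0.31, -0.055, 0.57 and 0.80 at 6 h, with the 6 h values widely spread (adjusted p = 0.18).

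Heat shock genes gave 3 higher of 20, the cochaperones Fkbp4, Ahsa1 and Cacybp, where 2.55% of all genes were higher and 0.788% lower. Fkbp4 had 1.73, 2.27, 1.93, 1.68 and 1.79 at 24 h and 1.27, 1.52, 1.38, 1.40 and 1.44 at 6 h, a difference of 0.48 ± 0.08 (adjusted p = 0.00029) with the groups apart, while Hspa1a, the inducible chaperone, was at the background in both, with -0.054 ± 0.03 at 24 h and -0.06 ± 0.04 at 6 h. With myclobutanil 11 of the 20 heat shock genes were called higher at 24 h than at 6 h, where 6.87% of genes were. With triadimefon 0 of the 20 were higher and 1 was lower, where 3.52% and 7.41% of genes were. In the endoplasmic reticulum list the controls gave 3 higher, Creld2, Hyou1 and Dnajb11 (0.34 ± 0.10, 0.30 ± 0.078 and 0.24 ± 0.066), and 1 lower, Herpud1 (-0.46 ± 0.13), of 31. After quantile normalization the heat shock list gave 5 higher and 2 lower, and the endoplasmic reticulum list 6 higher and 1 lower. There 3.07% of all genes were higher and 2.8% lower. Among arrays whose file name ends in 11 each of these lists gave 1 higher and 0 lower, where 1.25% and 0.302% of genes were. Calls of Cacybp, Creld2, Dnajb11 and Herpud1 ended in 6 to 8 of 10 cases when a single array was left out, with adjusted p up to 0.19. Those of Ahsa1 and Hyou1 ended in 4 and 3 cases, with adjusted p up to 0.12 and 0.086. The chief chaperone of that compartment, Hspa5, was not called (0.28 ± 0.13, adjusted p = 0.29). Gclm, of glutathione synthesis, was the 1 lower gene of 18 NRF2 targets, at -0.30 ± 0.067 (adjusted p = 0.0074), with 4 lower after quantile normalization, and Cd14 the 1 higher of 24 acute phase genes, at 0.49 ± 0.10 (adjusted p = 0.003). Hamp, the iron hormone hepcidin, had 2.91, 2.63, 1.28, 2.97 and 2.34 at 24 h and 3.10, 3.71, 3.82, 3.31 and 3.14 at 6 h. Its groups did not overlap, and the 24 h values were widely spread. The difference of -0.99 ± 0.38 was not called (adjusted p = 0.19).

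**Figure D5:**
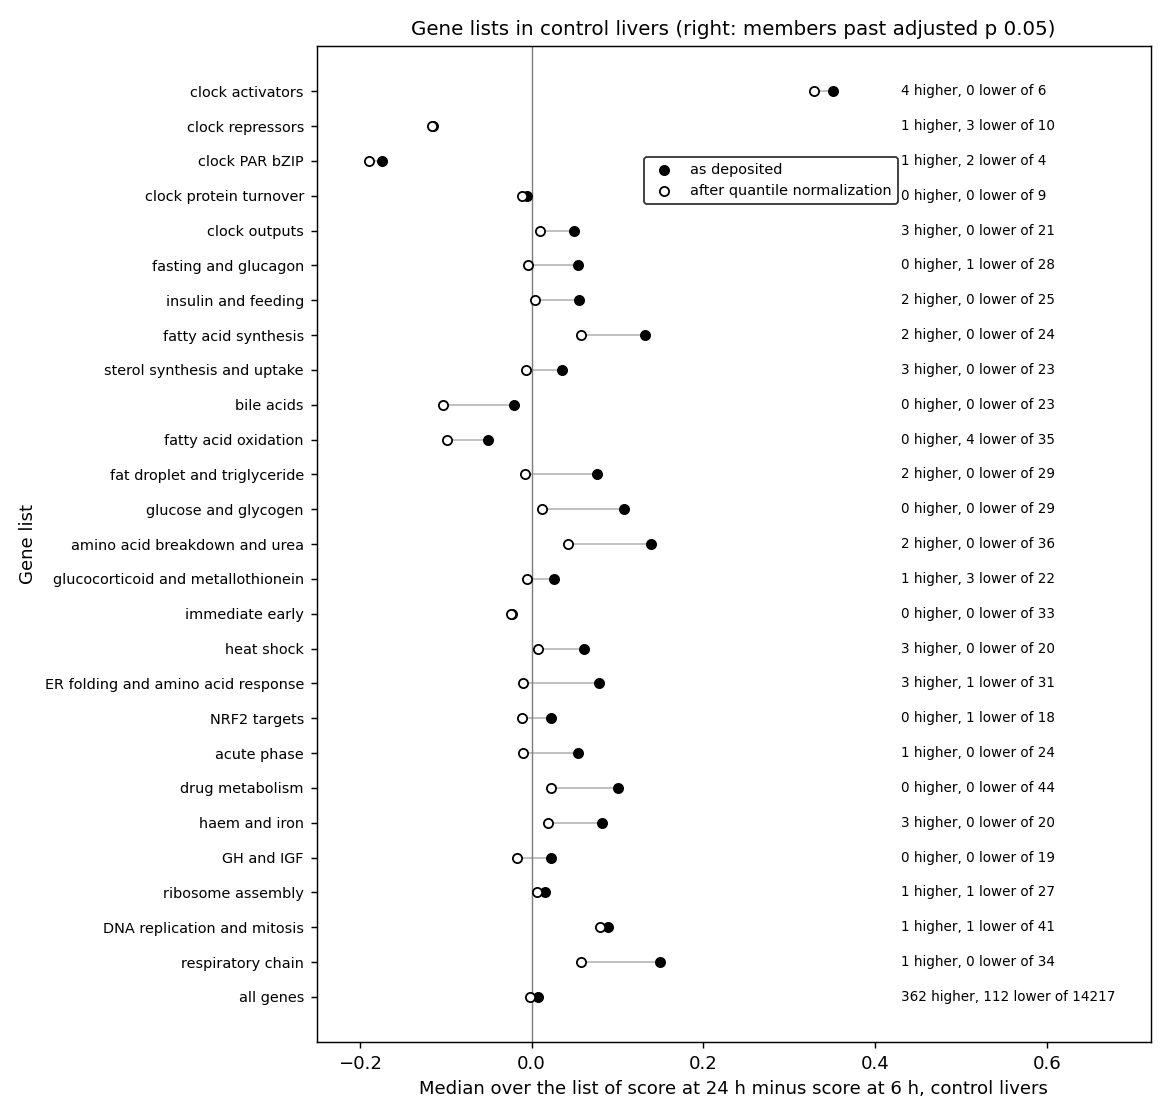
Median difference between 24 h and 6 h control livers (x axis, score units) over each gene list, as deposited (filled) and after quantile normalization (open), with the count of called members at right. The clock activators stand at 0.35 as deposited and 0.33 after quantile normalization, and all genes at 0.0077 and -0.0023.

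Growth and haem genes gave single calls. Ccnd1, cyclin D1, which drives cells into division, had 0.78, 0.997, 0.72, 0.94 and 0.77 at 24 h and 1.28, 1.38, 1.44, 1.47 and 1.37 at 6 h. It was lower in all 24 h arrays and its 2 other probe sets were also called lower, a difference of -0.55 ± 0.086 (adjusted p = 0.00013). In the list of replication and mitosis genes 1 was called higher, Cdkn1a, and 1 lower, Ccnd1, of 41. Over all genes 2.55% were called higher and 0.788% lower. At an unadjusted p under 0.05 in the limma fit, 11 of the 41 were higher and 1 lower, beside 16.2% of all genes in either direction. The median difference of these 41 was 0.089 as deposited and 0.079 after quantile normalization. Tfrc, the transferrin receptor, Blvrb, a biliverdin reductase, and Ppox, of haem synthesis, were the 3 higher genes of 20, at 0.58 ± 0.15 (adjusted p = 0.026), 0.37 ± 0.072 (adjusted p = 0.0022) and 0.16 ± 0.045 (adjusted p = 0.032). Leaving out a single array ended the call in 5 of 10 cases for Tfrc and 6 for Ppox, with adjusted p up to 0.13 and 0.17. Drug metabolism genes gave 0 called of 44 by limma, 8 at an unadjusted p under 0.05 and 3 higher after quantile normalization, where 3.07% of all genes were higher. The 19 growth hormone and IGF genes gave 0 called by limma, 3 at an unadjusted p under 0.05. Of 27 ribosome assembly genes Gnl3 was lower (-0.38 ± 0.08, adjusted p = 0.0046) and Bop1 higher (0.12 ± 0.027, adjusted p = 0.0098), and Cox5a was the 1 higher of 34 respiratory chain genes (0.11 ± 0.032), lost in 7 of 10 cases when a single array was left out and after quantile normalization (adjusted p = 0.09). After that normalization 3 other genes of the list were called higher, Ndufs1, Sdhc and Atp5po, at 0.10 (adjusted p = 0.049), 0.10 (adjusted p = 0.0085) and 0.14 (adjusted p = 0.002). At an unadjusted p under 0.05, 17 of the 34 were higher and 0 lower as deposited, beside 16.2% of all genes in either direction. The mean score of the list was 2.30, against 0.45 over all genes. Its median difference was 0.15 as deposited and 0.058 after quantile normalization, beside 0.0077 and -0.0023 over all genes. The part of array brightness in this count was not tested.

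Of 162 measured entries in 13 cell type marker lists 2 were called higher, Pdgfrb of stellate cells (0.23 ± 0.04) and Lrrn4 of mesothelium (0.19 ± 0.054), and 1 lower, Cebpa, a hepatocyte factor (-0.41 ± 0.11). The shares over all genes were 2.55% higher and 0.788% lower. After quantile normalization 4 markers were higher and 4 lower, where 3.07% of all genes were higher and 2.8% lower. The other probe sets of Pdgfrb showed 0.041 (adjusted p = 0.55) and 0.008 (adjusted p = 0.96), and those of Lrrn4 0.023 (adjusted p = 0.73) and 0.05 (adjusted p = 0.27). The calls of Lrrn4 and Cebpa ended in 7 and 5 of 10 cases when a single array was left out, with adjusted p up to 0.18 and 0.14. The mean score over 24 hepatocyte markers ran from 3.56 to 4.32 in the 24 h arrays and from 3.34 to 4.21 in the 6 h arrays, and over 14 Kupffer cell and macrophage markers from 1.16 to 1.66 at 24 h and from 1.2 to 1.35 at 6 h. The Kupffer cell list gave 0 called by limma and 3 at an unadjusted p under 0.05, beside 16.2% of all genes. Of 11 markers of pancreatic acinar cells 9 averaged under 0.1 at both times, among them Prss1 at -0.22 at 24 h and -0.19 at 6 h. The exceptions were Cela1, at 1.14 at 24 h and 1.10 at 6 h, and Cpb1, at 0.27 at 24 h and 0.31 at 6 h. In whole liver RNA, fewer cells of a type and less RNA per cell cannot be told apart.

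Across all probe sets 863 of 31042 (2.78%) were called, 633 (2.04%) higher and 230 (0.741%) lower at 24 h, with a median size of 0.19 and 8 at 1 or more. After quantile normalization the counts were 751 (2.42%) higher and 644 (2.07%) lower, and without replicate 2 of the 24 h controls 350 and 351. Treated livers, which share no array with these, gave the same sign for 85.5% of the 633 higher probe sets with myclobutanil and 56.2% with triadimefon, where 51.7% and 51.8% of all probe sets had a positive difference. For the 230 lower ones it was 90.9% with myclobutanil and 88.7% with triadimefon, where 48.3% and 48.2% of all were negative. Probe sets are not independent replicates.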

How the data were processed

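The authors deposited 1 score per probe set and array; per the file headers neither summary method, normalization nor log base is stated, so the deposited scores were analysed unchanged, although the design assumed log2 or linear values. The processing steps before that are not given in the sources used here. Leaving out 57 control probe sets of 31099, limma 3.58.1 in R 4.3.3 tested 31042, with 1 mean per group over all 45 arrays in 9 groups, moderated variances, and Benjamini-Hochberg adjustment over all probe sets. Calls are at an adjusted p under 0.05, and errors are standard errors of the fit unless named SD. For each of 14217 genes the probe set with the highest mean score stood for the gene, chosen among the 20826 probe sets listed with 1 gene; 436 list several and 9780 none. No pair of columns was identical. Precision is limited by the number of arrays, since chips carry no read depth.

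Genes named are the 12 highest and 12 lowest called, all core clock genes, up to 5 called members of each of 39 gene lists, and a fixed panel. Some genes of that panel are not reported here. Members and lists were chosen with earlier results of these data known. The test was run on simulated data with independent noise for each probe set and array. That simulation held no array-wide differences or shared rats, so it cannot show how these bear on the calls. Promoters came from RefSeq (GRCr8) and were matched by gene identifier. Alternatives were quantile normalization, a shift to equal medians, a filter on dim probe sets, only the arrays compared, array weights, trend and robust moderation, a replicate block, the ending of the array file name, stricter thresholds, and each array left out in turn.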

Additional observations from a re-analysis of the deposited data

Results flagged for a closer look

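Of 182 groups of 5 examined (91 named genes, 24 h and 6 h controls), in 13 a single array stood apart from the 4 others of its group by Dixon's criterion, which chance meets in about 1 group in 20. In 9 of them it was replicate 2 of the 24 h controls, the array with the highest 99th percentile of the score, and it was the highest. Its scores were 2.73 for Clpx (next highest array 2.35), 3.03 for Cyp8b1 (2.41), 2.41 for Dhcr7 (2.17), 3.46 for Insig2 (2.88), 2.08 for Nr1h3 (1.77), 0.93 for Per2 (0.56), 3.03 for Pgpep1 (2.38), 1.85 for Pmvk (1.48) and 2.75 for Srebf1 (2.24). Among the 6 h controls replicate 2 was highest for Cacybp at 1.55 (next 1.41) and lowest for Nr1i3 at 0.36 (next 0.59). Replicate 3 was highest for Gadd45b at 0.16 (next -0.0067) and lowest for Rbm3 at 0.51 (next 0.76).

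The difference between 24 h and 6 h itself differed between treated and control livers for 27 of 182 gene and compound pairs (91 named genes, 2 compounds), by the limma test of that gap, which called 2.48% of all genes with myclobutanil and 4.6% with triadimefon. Most of these genes were named for their control difference, which the gap subtracts, so the 27 are given as a description. The gap ran against the sign of the control difference in 7 of 9 cases with myclobutanil and 18 of 18 with triadimefon. Among arrays whose file name ends in 11, 5 of the 9 and 2 of the 18 (Creld2 and Hyou1) were called. With myclobutanil the gap (treated minus control) was -0.80 for Avpr1a (adjusted p = 0.018), -1.11 for Cyp8b1 (0.0023), -0.57 for Gadd45b (0.037), 0.70 for Gclm (4.6e-05) and 2.00 for Hamp (0.043). It was also -0.90 for Insig2 (0.0048), -0.51 for Prodh (0.00074), -0.74 for Sez6 (0.037) and 0.42 for Timeless (0.0031). With triadimefon the endoplasmic reticulum genes gave -1.004 for Creld2 (5e-05), -0.58 for Dnajb11 (0.00047), -0.65 for Hspa5 (0.033) and -0.77 for Hyou1 (0.00013). The fatty acid oxidation genes gave 1.19 for Cyp4a3 (0.0013), 0.87 for Ech1 (0.0044) and 0.94 for Eci1 (0.0027). Other gaps with triadimefon were 0.62 for Ccnd1 (0.0028), 0.39 for Gclm (0.016), -0.18 for Bop1 (0.0066), -0.18 for Cox5a (0.016), -0.45 for Cry1 (0.015) and -0.46 for Fkbp4 (0.018). The last were -0.27 for Lrrn4 (0.044), -0.65 for Pgpep1 (0.013), -0.30 for Ppox (0.0051), -0.37 for Prodh (0.013) and -0.74 for Sez6 (0.026).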

How the results depend on the processing

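The count of called probe sets, 863 as deposited, was 1395 after quantile normalization, 164 with only the arrays compared, 405 among arrays whose file name ends in 11, 413 with that ending as a covariate and 570 (272 higher, 298 lower) with both that restriction and quantile normalization, an alternative chosen after seeing the data. An adjusted p under 0.01 left 318 and a difference of at least 0.5 left 56. Same-numbered arrays had correlations of 0.36, 0.58, -0.20, 0.059 and 0.01 as deposited, and of 0.091, 0.184, -0.136, -0.096 and 0.022 after quantile normalization. These mixed values cannot show whether the numbers pair the arrays. The replicate block gave 569. Leaving out single arrays gave 446 (without 6 h replicate 3) to 1000. The triadimefon count of 2558 became 451 with the replicate block, 182 with ending 11, and 1319 to 2924 with single arrays left out. The count of gaps between myclobutanil and control time differences, 542, became 1251 after quantile normalization and 307 with the ending as covariate, and that for triadimefon, 972, became 373 with the replicate block, 22 with ending 11, and 463 (without 24 h control replicate 2) to 1486. The causes were not tested.

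Of the 62 named genes called, 31 lost the call with only the arrays compared. Among arrays whose file name ends in 11, 26 lost it, and with that ending as a covariate 25. Both settings set aside replicates 2 and 3 of the 6 h controls, whose endings no other array has. For the control difference they are therefore not separate checks. Array weights and the replicate block ended 11 calls each, and quantile normalization 2. Directions turned in these genes that were not called, or between probe sets of 1 gene. Bmal2 gave 0.0063 with array weights and 0.0007 with ending 11 or as covariate; Cry2 -0.0014 after quantile normalization, -0.0150 with weights and -0.0008 with quantile and ending 11. Cyp7a1 gave -0.1053 (quantile), -0.0004 (equal medians), -0.0953 (weights) and -0.1266 (quantile and ending 11). Fkbp5 gave -0.0182 with weights, -0.0384 with ending 11 and -0.0456 with quantile and ending 11. Hlf gave -0.0332, -0.0093 and -0.0368, and Per2 -0.0708, -0.0044 and -0.0246, in the same order. Pck1 gave -0.0163 after quantile normalization and -0.0055 with ending 11 too. Other probe sets gave 0.0288 and 0.0044 for Cirbp, -0.0079 and -0.0113 for Hlf, 0.0210 for Eci1 and -0.0056 for Prodh. With single arrays left out, differences ran -0.024 to 0.0009 for Bmal2, -0.028 to 0.038 for Cry2, -0.12 to 0.10 for Cyp7a1, -0.026 to 0.036 for Fkbp5, -0.0051 to 0.02 for Hspa1a, -0.044 to 0.21 for Pck1, -0.055 to 0.085 for Per2 and -0.0037 to 0.016 for Rorb.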
